A study of Homo sapiens with 33 samples.

Results

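Human embryonic stem cells kept under 5 small-molecule inhibitors were compared between day 9 and day 7 of treatment. The comparison used 6 of the 33 bead arrays of the study, 3 from each day, chosen by the treatment and day in their labels, and 10038 genes detected in at least 1 group of the study. All groups used H9 (WA-09), an established embryonic stem cell line, grown on mouse embryonic fibroblast feeders and moved to Matrigel, a basement membrane extract, for differentiation. LSB3i cells received LDN-193189, which inhibits BMP type I receptors, SB431542, which inhibits the TGF-beta, activin and nodal receptors, CHIR 99021, which inhibits the kinase GSK3 and so activates Wnt/beta-catenin signalling, DAPT, which inhibits gamma-secretase and so Notch signalling, and SU5402, which inhibits FGF and VEGF receptors. LSB cells, used here for a single comparison of changes, received LDN-193189 and SB431542 alone and were also sampled on days 7 and 9 with 3 arrays each. The labels call the LSB3i treatment a nociceptor differentiation. They do not give the day on which each inhibitor was added, and they do not say whether the arrays lettered A, B and C came from separate cultures. The p-values below therefore measure the spread between arrays, which may be technical, in 1 cell line. Unless a smaller fit is named, this spread was pooled over all 11 groups of the study, not taken from the compared arrays alone. That also holds for the results with arrays B and C alone.

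Nociceptors are the sensory neurons that detect painful stimuli. In the embryo they arise from neural crest, a migratory population that forms at the dorsal border of the neural plate where Wnt signalling is high. A progenitor that escapes Notch signalling switches on proneural factors, leaves the cell cycle, and then makes the cytoskeleton, vesicle proteins and transmitters of a neuron. The factors POU4F1 and ISL1 are known to act together at the start of sensory neuron differentiation.

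Values are normalized intensities on the log2 scale, so a difference of 1 is a 2-fold change, and a probe counts as above background where its detection p-value is under 0.01. A call here needs a log2 difference of at least 1 and, in limma, an adjusted p (Benjamini-Hochberg) under 0.05. An unadjusted limma p under 0.05 was reached by 7.74% of all genes with all arrays and 6.98% with B and C alone. Both directions count in these shares. With all arrays, 47 of the 10038 genes were called higher on day 9 (0.468%) and 5 lower (0.0498%). In 37 of these 52 genes the day 9 arrays did not overlap the day 7 arrays, which was also so for 1567 of all genes (15.6%). With arrays B and C alone, 109 genes were called higher (1.09%) and 27 lower (0.269%), and 49 of the 52 were among them. With the letter as a replicate block, 108 were called higher (1.08%) and 24 lower (0.239%), all 52 among them, and 91 of these 132 were also called with B and C alone. Neuronal genes led the higher group: somatostatin, ISL1, the vesicle protein gene SYT4 and the microtubule regulator STMN2 were among the 5 largest called rises, together with the matrix gene LUM. The lower group held the Wnt ligand WNT4, the secreted protein gene PAMR1, the glutamate receptor GRM3 and the phosphatase ALPL.

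The A arrays stood apart from their own days. Across the genes, the correlations of array A of day 9 with arrays B and C averaged 0.987 for those of day 7 and 0.971 for those of day 9. The correlations of array A of day 7 with B and C averaged 0.990 for those of day 5 and 0.959 for those of day 7. The change of the A pair from day 7 to day 9 had a correlation of 0.742 across genes with the change of B and C from day 5 to day 7, and 0.255 with the change of B and C from day 7 to day 9 (genes are not independent replicates, and the arrays of the 2 changes are not shared). Of the 136 genes called with B and C alone, the A pair changed the same way in 100 (73.5%), against 58.2% of all genes, and by at least 1 in 53. The A pair rose in 85 of the 109 genes called higher and fell in 15 of the 27 called lower. The count moved with single arrays: of the 52 genes, 6 stayed called without array A of day 7, 4 without array B of day 9 and 5 without array C of day 9, whereas all 52 stayed called without array A of day 9. The 4 genes called in each of the 6 left-out fits were LUM, DCN, GABRP and TMEM163, of which the last pair was named after its values were seen. A fit on the 6 arrays alone called 0 genes in limma, with 969 at an unadjusted p under 0.05.

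**Figure D1:**
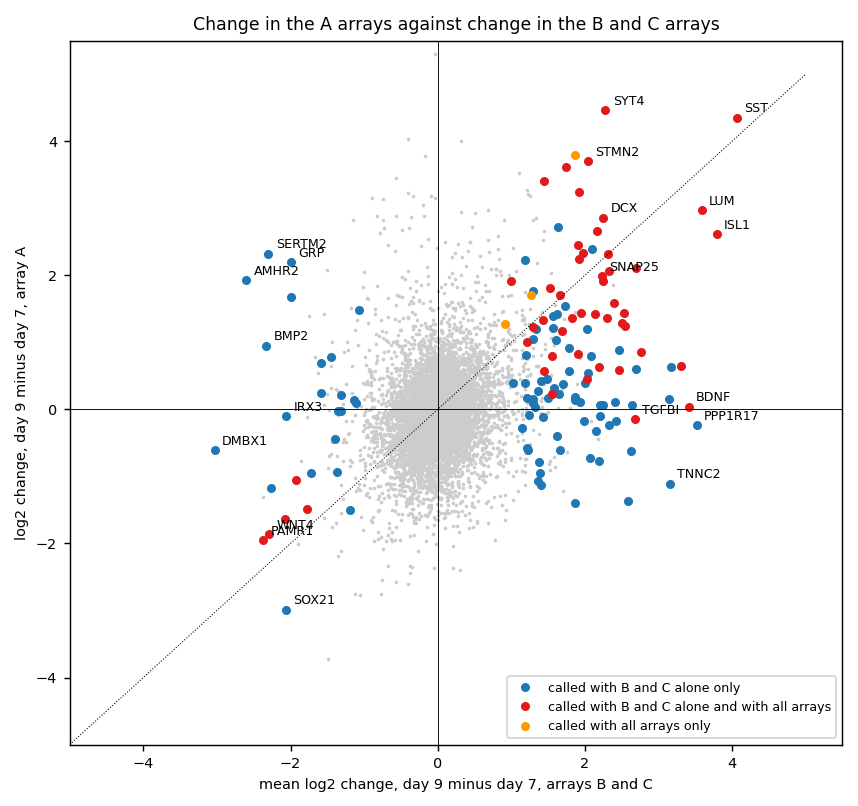
Log2 change from day 7 to day 9 of each of the 10038 genes in the A arrays (vertical axis) against the mean log2 change in arrays B and C (horizontal axis), with genes called by each set of arrays in colour and equal change on the dotted line. SST, ISL1 and LUM lie far from 0 on both axes, BDNF and PPP1R17 lie near 0 for array A, and SERTM2, GRP and AMHR2 rise in array A while they fall in B and C.

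Of 25 listed regulators of sensory neurons, 11 passed the detection filter and were tested. With all arrays 2 of them were called higher (ISL1 and GFRA1), 3 with B and C alone, which added POU4F2, and 4 with the replicate block. The median log2 difference of the list was 0.75 with all arrays and 0.65 with B and C alone, against -0.028 and -0.024 over all genes, and all 11 members were above 0 in both. Over all genes, 45.5% were above 0 with all arrays and 53.9% were below 0 with B and C alone. The directions of the 11 members are not independent of the filter. POU4F2 and PRPH passed it only through LSB3i day 15, where they were detected on all 3 arrays. ISL1, a LIM homeodomain factor of sensory and motor neurons, measured 5.51, 8.44 and 8.55 in arrays A, B and C on day 7 and 8.13, 12.01 and 12.56 on day 9. Array A was low on both days and its day 9 value lay below the day 7 values of B and C, so the groups overlapped. Only 2 day 7 arrays were above background, so the size of the rise with all arrays is uncertain. The difference was 3.40 ± 0.71 (SE, n = 3 arrays per day, adjusted p = 0.0236), a 10.6-fold rise, and 3.79 ± 0.31 with B and C alone (n = 2 per day, adjusted p = 7.73e-08). Both SEs rest on the spread within all 11 groups, not on the compared arrays alone. ISL1 is also known from other cells, among them motor and visceral neurons, cardiac progenitors and pancreatic endocrine cells. Of the 6 motor and hindbrain visceral neuron markers with a probe, 5 (MNX1, LHX3, LHX4, PHOX2A and SLC18A3) were above background on none of the 6 arrays, and the summed intensity of the 6 ranged from 221.6 to 278.3 on day 7 and from 240.8 to 283.7 on day 9. GFRA1, a receptor for the neurotrophic factor GDNF, measured 5.41, 8.21 and 8.46 on day 7 and 8.65, 10.25 and 10.26 on day 9. Its groups did not overlap, with a difference of 2.36 ± 0.53 (adjusted p = 0.0384) and 1.92 ± 0.39 with B and C alone (adjusted p = 0.00595). For GFRA1 too, only 2 day 7 arrays were above background.

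POU4F1, the POU-domain factor of early sensory neurons, was not called under either set of arrays. It measured 10.31, 10 and 10.18 on day 7 and 9.87, 12.06 and 12.49 on day 9, so B and C stood above every day 7 array and A below all of them. The difference was 1.31 ± 0.66 (adjusted p = 0.673) with all arrays and 2.18 ± 0.75 (adjusted p = 0.257) with B and C alone. The spread in both fits also took in LSB3i day 5, where POU4F1 read 6.19, 10.44 and 10.42 in arrays A, B and C. How far day 5 widened the SE was not tested. Its close relative POU4F2 was not above background on any day 7 array, at 5.12, 5.65 and 5.42, and measured 5.35, 7.22 and 7.15 on day 9. The rise of POU4F2 was called with B and C alone, at least 1.67-fold (adjusted p = 3.91e-05) and with the block (adjusted p = 0.00291), but not with all arrays (adjusted p = 0.0732). This bound is under 2-fold, as the call rests on fitted values that include day 7 readings at background. None of the 8 tested nociceptor channels and receptors was called by limma with either set of arrays, and 1 had an unadjusted p under 0.05. NEUROG1 and NEUROD1 were not tested.

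Neuropeptide and secretory granule genes held the largest rise. SST, which encodes the inhibitory peptide somatostatin, measured 5.29, 7.76 and 8.85 on day 7 and 9.63, 12.59 and 12.16 on day 9. Every day 9 array lay above every day 7 array, array A was lowest on each day, and A of day 7 was not above background. The difference was 4.17 ± 0.66 (adjusted p = 0.00221), or 17.9-fold, and 4.07 ± 0.50 with B and C alone (adjusted p = 2.35e-05). Without array B of day 9 the call was lost (3.60, adjusted p = 0.0593). CHGB, the granule protein chromogranin B, rose by 1.99 ± 0.40 with all arrays (adjusted p = 0.0177) and 2.30 ± 0.43 with B and C alone. SCG2, the granule protein secretogranin II, was not above background on day 7 and was called with B and C alone, at least 2.75-fold higher (adjusted p = 0.00158), and with the block (adjusted p = 0.0404). CHGB was above background on only 1 day 7 array. SCG2 passed the filter only through LSB3i day 15, and SST and CHGB only through LSB3i days 9 and 15. In all 2 of 19 tested members were called higher with all arrays, 3 with B and C alone and 3 with the block, and the list's median stayed at 0.11 in both sets of arrays.

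The windows of 250 bases before the RefSeq gene start (build GRCh38.p14) are shown for 3 called genes, SST and ISL1 with the largest rises of all and DCX with the largest rise of its list with B and C alone, with 1 motif in capitals in each: the cyclic AMP response element TGACGTCA, at position -47 from the gene start in SST (chr3:187670395-187670644, minus strand), the E-box CAGCTG, a form bound by proneural factors, at -144 in ISL1 (chr5:51383198-51383447, plus strand), and the homeodomain core TAATTA at -134 in 1 of 3 windows of DCX (chrX:111412193-111412442, minus strand).
SST: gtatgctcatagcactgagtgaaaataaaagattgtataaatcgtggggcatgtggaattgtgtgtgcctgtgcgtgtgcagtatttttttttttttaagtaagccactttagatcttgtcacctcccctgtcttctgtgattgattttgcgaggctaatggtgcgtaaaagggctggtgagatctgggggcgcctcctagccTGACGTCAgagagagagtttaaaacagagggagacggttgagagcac
ISL1: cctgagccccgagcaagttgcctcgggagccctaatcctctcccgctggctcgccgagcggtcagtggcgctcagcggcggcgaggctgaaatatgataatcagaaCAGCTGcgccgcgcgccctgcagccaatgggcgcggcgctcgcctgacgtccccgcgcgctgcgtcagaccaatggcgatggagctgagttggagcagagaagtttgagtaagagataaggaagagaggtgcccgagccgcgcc
DCX: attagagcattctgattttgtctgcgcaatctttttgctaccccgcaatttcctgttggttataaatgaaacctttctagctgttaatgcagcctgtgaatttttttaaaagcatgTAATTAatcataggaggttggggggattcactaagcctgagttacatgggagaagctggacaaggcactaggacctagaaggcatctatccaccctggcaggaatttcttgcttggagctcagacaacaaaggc
Each motif reads the same on both strands, and none contains another. TGACGTCA was in 1.65% of the 35116 windows of the table, CAGCTG in 14% and TAATTA in 4.35%. Of the 47 genes called higher with all arrays, 34 had at least 1 window (63 windows). TGACGTCA was found in 1 of these genes (SST), CAGCTG in 10 and TAATTA in 3, counts per gene that are not on the same base as the shares per window. A match is a string of letters and says nothing of binding.

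Notch ligands and proneural factors had the highest median of the 25 lists, 1.32 with all arrays and 1.33 with B and C alone, against -0.028 and -0.024 over all genes. Of 15 tested members, 3 were called higher with all arrays (HES6, INSM1 and EBF2), 4 with B and C alone, which added EBF1, and 7 with the replicate block. All 15 were above 0 with B and C alone and 13 with all arrays, and none was called lower. Over all genes, 45.5% were above 0 with all arrays and 53.9% were below 0 with B and C alone. The proneural factor NEUROG2 measured 7.18, 6.95 and 7.22 on day 7 and 6.47, 7.48 and 6.98 on day 9. It was not called with either set of arrays or the block. The list holds 24 genes, and the directions of those tested are not independent of the detection filter. EBF2, for 1, passed it only through LSB3i days 9 and 15. HES6, a HES family member known to oppose HES1 and promote neuronal differentiation, measured 9.17, 9.78 and 10.47 on day 7 and 10.75, 12.33 and 12.70 on day 9. The groups did not overlap and each letter rose, A the least at 1.58. The difference was 2.12 ± 0.38 (adjusted p = 0.00831) and 2.39 ± 0.35 with B and C alone (adjusted p = 0.000195). INSM1, a zinc finger factor of newborn neurons and endocrine cells, measured 6.70, 7.88 and 8.15 on day 7 and 8.77, 10.07 and 10.63 on day 9. Its letters rose by similar amounts, 2.07, 2.19 and 2.47, and the fitted difference was 2.25 ± 0.42 (adjusted p = 0.0145). EBF2, a helix-loop-helix factor of differentiating neurons, rose by 2.09 ± 0.41 (adjusted p = 0.016) and by 1.44 ± 0.29 with B and C alone. It was above background on only 2 day 7 arrays.

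The Notch ligand DLL3 was not called (0.65 ± 0.25, adjusted p = 0.425) and stood at 0.18 ± 0.26 with B and C alone. Among the receptors and effectors of the pathway, 0 of 12 tested genes were called by limma with all arrays, while 3 had an unadjusted p under 0.05 on the higher and 1 on the lower side. HEYL, an effector of Notch also found in smooth muscle and sensory neurons, was the 1 called with B and C alone. It measured 6.56, 7.86 and 7.77 on day 7 and 6.96, 9.66 and 9.96 on day 9, which gave 2.00 ± 0.46 with B and C alone (adjusted p = 0.0177), 1.47 ± 0.54 with all arrays (adjusted p = 0.363) and no call with the block (adjusted p = 0.0758).

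Genes of the neuronal cytoskeleton and growth cone followed. Of 31 tested, 6 were called higher with all arrays, 8 with B and C alone and 8 with the block, and none lower. STMN2, which binds tubulin in growth cones, measured 8.75, 11.40 and 11.79 on day 7 and 12.45, 13.61 and 13.67 on day 9. All day 9 arrays lay above all day 7 arrays, and the A pair rose most, by 3.70 against 2.21 and 1.88 in B and C. The difference was 2.60 ± 0.51 (adjusted p = 0.0167) and 2.04 ± 0.40 with B and C alone (adjusted p = 0.00421). DCX, the microtubule-binding protein doublecortin of migrating neurons, measured 7.30, 9.22 and 9.74 on day 7 and 10.17, 11.54 and 11.92 on day 9. Its groups did not overlap either, and the rise was 2.45 ± 0.48 (adjusted p = 0.016), or 5.47-fold. NEFM, the middle neurofilament subunit, rose by 2.36 ± 0.41 (adjusted p = 0.00645) and by 1.74 ± 0.27 with B and C alone. STMN4, a relative of STMN2, rose by 2.02 ± 0.45 (adjusted p = 0.0363) with groups that overlapped. NEFM passed the filter only through LSB3i days 9 and 15. On day 7 only 2 arrays were above background for NEFM and for STMN4. TUBB3, the neuronal tubulin widely used as a neuronal marker, was already bright at 10.06, 12.07 and 12.40 on day 7 and reached 12.29, 13.37 and 13.47 on day 9. It was called with B and C alone (1.18 ± 0.26, adjusted p = 0.0131) and with the block (adjusted p = 0.000319), but not with all arrays (1.53 ± 0.38, adjusted p = 0.067).

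Synaptic vesicle and release genes were called higher in 3 of 21 with all arrays (SYT4, SNAP25 and SLC17A6), 4 with B and C alone, which added CPLX1, and 4 with the block. SYT4, a synaptotagmin of dense-core vesicles, measured 6.15, 9.63 and 10.13 on day 7 and 10.61, 11.89 and 12.44 on day 9. The groups did not overlap, the A pair rose by 4.46, and B and C rose by 2.26 and 2.31. The difference was 3.01 ± 0.60 (adjusted p = 0.0177) and 2.28 ± 0.38 with B and C alone (adjusted p = 0.000729). SNAP25, a SNARE protein of vesicle fusion, measured 6.26, 7.77 and 7.95 on day 7 and 8.25, 9.97 and 10.21 on day 9. Its rise was nearly the same in both sets, 2.15 ± 0.36 (adjusted p = 0.00466) and 2.23 ± 0.23 (adjusted p = 1.82e-06). SLC17A6, the vesicular glutamate transporter VGLUT2, was not above background on day 7 at 5.36, 5.65 and 6.00 and measured 5.94, 8.39 and 8.20 on day 9. Only B and C of day 9 were above background for it, and the rise was at least 2.06-fold with all arrays (adjusted p = 0.0331) and at least 3.61-fold with B and C alone (adjusted p = 5.37e-05). CPLX1, the release regulator complexin 1, was at background on day 7 and rose at least 1.46-fold with B and C alone (adjusted p = 0.00347), with no call with all arrays (adjusted p = 0.144). This bound is under 2-fold, as the call rests on fitted values that include day 7 readings at background. SLC17A6 and CPLX1 passed the filter only through LSB3i day 15, and SNAP25 only through LSB3i days 9 and 15. On day 7 only 2 arrays were above background for SYT4 and for SNAP25.

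**Figure D2:**
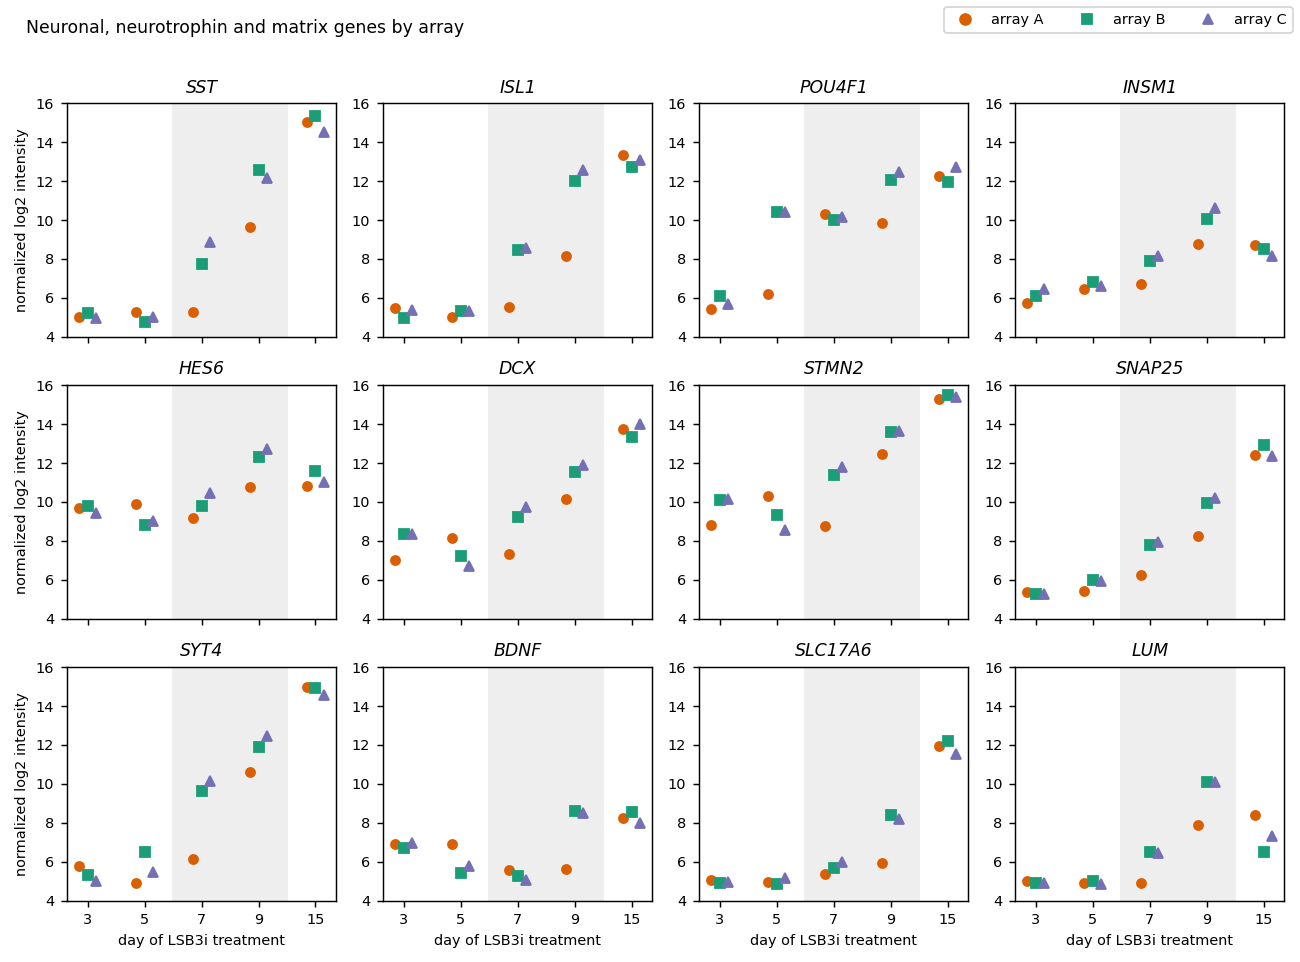
Normalized log2 intensity of 12 genes on the 15 LSB3i arrays by day, 1 point per array, with the letter shown by colour and shape and days 7 and 9 shaded. For SST, SYT4 and SNAP25 all 3 day 9 points lie above all 3 day 7 points, ISL1 of array A on day 9 (8.13) lies below B and C of day 7, and POU4F1 of array A (9.87) does not rise.

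Of the neuronal RNA-binding proteins and BAF chromatin subunits, 2 of 19 were called higher in each set of arrays and 3 with the block. ELAVL3, a Hu protein that stabilises neuronal transcripts, measured 5.65, 7.68 and 8.46 on day 7 and 8.30, 9.91 and 10.55 on day 9. The groups overlapped by array A, and the difference was 2.33 ± 0.55 (adjusted p = 0.0484) and 2.16 ± 0.47 with B and C alone (adjusted p = 0.011). SRRM4, the splicing regulator of neuronal microexons, rose by 2.09 ± 0.43 (adjusted p = 0.0226). In the axon guidance and adhesion list, NRP1, a receptor for semaphorin 3A and VEGF, was the 1 called gene of 24 in each set and with the block. It was not above background on day 7 and rose at least 2.52-fold with all arrays (adjusted p = 0.0331) and at least 4.30-fold with B and C alone. Ion channels and transmitter receptors were called in 0 of 20 by limma with all arrays (2 at an unadjusted p under 0.05) and in 2 with B and C alone and with the block. These were GRIA2, an AMPA receptor subunit, at least 3.70-fold higher with B and C alone (adjusted p = 4.89e-05), and GLRA2, a glycine receptor subunit, at least 1.93-fold higher (adjusted p = 3.74e-05). Array A showed neither, with day 7 and day 9 values of 5.10 and 4.93 for GRIA2 and of 5.10 and 5.16 for GLRA2. The bound for GLRA2 is under 2-fold, as its call rests on fitted values that include day 7 readings at background. GRIA2 and GLRA2 passed the filter only through LSB3i day 15, and ELAVL3 and SRRM4 only through LSB3i days 9 and 15. On day 7 only 2 arrays were above background for ELAVL3 and for SRRM4.

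Several other neuronal genes had large rises outside these lists. BDNF, the neurotrophin brain-derived neurotrophic factor, was at background on day 7 at 5.57, 5.24 and 5.07 and measured 5.61, 8.63 and 8.49 on day 9. The A arrays stayed at background on both days, and the rise was at least 2.16-fold with all arrays (adjusted p = 0.0231) and at least 4.34-fold with B and C alone (adjusted p = 1.82e-06). NSG1, an endosomal protein of neurons, measured 7.38, 7.95 and 8.03 on day 7 and 8.24, 10.89 and 10.62 on day 9, a difference of 2.13 ± 0.40 (adjusted p = 0.0145). RPRM, a p53-induced gene known for cell cycle arrest in G2, measured 6.79, 6.97 and 7.04 on day 7 and 7.43, 10.11 and 10.51 on day 9. Most of its rise lay in B and C, with 2.42 ± 0.51 (adjusted p = 0.0236) over all arrays and 3.30 ± 0.43 (adjusted p = 4.41e-05) in B and C alone. SNCG, a synuclein of peripheral sensory neurons, rose by 2.32 ± 0.45 (adjusted p = 0.016), with rises of 2.32, 2.41 and 2.23 in A, B and C. ONECUT2, a cut homeodomain factor, was called with all arrays (2.51 ± 0.57, adjusted p = 0.0384) and with the block (adjusted p = 0.00208) but not with B and C alone (1.86 ± 0.51, adjusted p = 0.0745). GABBR2, a subunit of the metabotropic GABA receptor, was not above background on day 7 and rose at least 2.31-fold (adjusted p = 0.0177). PPP1R17, a phosphatase inhibitor known from cerebellar Purkinje cells, rose at least 6.76-fold with B and C alone (adjusted p = 5.91e-06) and with the block (adjusted p = 0.00882), and it missed the threshold with all arrays (adjusted p = 0.0575), where array A read 6.00 on day 7 and 5.76 on day 9. GABBR2 and PPP1R17 passed the filter only through LSB3i day 15, and SNCG and ONECUT2 only through LSB3i days 9 and 15. On day 7 only 2 arrays were above background for SNCG and for ONECUT2.

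Single genes of the extracellular matrix were also called higher. LUM, the small proteoglycan lumican, measured 4.92, 6.51 and 6.47 on day 7 and 7.88, 10.07 and 10.10 on day 9. The groups did not overlap and the letters rose by 2.97, 3.56 and 3.63, which gave 3.39 ± 0.49 (adjusted p = 0.000797) and 3.59 ± 0.43 with B and C alone (adjusted p = 1.86e-05). Only 1 day 7 array was above background for LUM, so the size of these rises is uncertain. DCN, the related proteoglycan decorin, was not above background on day 7 at 5.16, 5.68 and 6.15 and measured 7.27, 8.71 and 8.51 on day 9. Its rise was at least 3.25-fold (adjusted p = 8.75e-05) and at least 4.49-fold with B and C alone (adjusted p = 2.6e-06). On day 15 LUM stood at 8.39, 6.50 and 7.32 and DCN at 5.26, 5.21 and 5.67, a description with no test. TGFBI, a matrix protein induced by TGF-beta, read 8.13 in array A, 7.63 in B and 7.53 in C on day 7 and 7.99, 10.03 and 10.50 on day 9. Only B and C were higher on day 9. That gave 1.74 ± 0.38 (adjusted p = 0.0312) with all arrays and 2.68 ± 0.28 (adjusted p = 2.48e-06) with B and C alone.

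The wider matrix list held few calls. None of 28 tested collagen, laminin and integrin genes was called by limma with either set of arrays (6 higher and 1 lower at an unadjusted p under 0.05 with all arrays, 4 and 0 with B and C alone), and 1, COL1A2, was called with the block (1.22, adjusted p = 0.00755). Over all genes, 7.74% and 6.98% had such an unadjusted p in either direction. COL3A1, a fibrillar collagen of mesenchyme, measured 4.72, 9.60 and 9.51 on day 7 and 10.01, 9.82 and 9.23 on day 9, so that its difference of 1.75 ± 0.70 (adjusted p = 0.45) lay in array A and was -0.03 with B and C alone. Of 13 mesenchyme and smooth muscle markers, 2 (LUM and DCN) were called with all arrays and 3 with B and C alone, where POSTN was the third, with no array of day 7 and 1 of day 9 above background. POSTN passed the filter only through LSB3i day 15. The summed intensity of the 13 markers ranged from 31720 to 52600 on day 7 and from 40430 to 45880 on day 9, and their part in the changes was not tested. In whole-culture RNA, fewer cells of a type and less RNA per cell cannot be told apart.

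TNNC2, the troponin C of fast skeletal muscle, was at background on day 7 and measured 4.85, 8.47 and 8.91 on day 9. With B and C alone it rose at least 4.76-fold (adjusted p = 3.25e-05), array A fell by 1.11, and neither all arrays (adjusted p = 0.283) nor the block (adjusted p = 0.116) gave a call. CAPN3, the calpain of skeletal muscle, was at least 4.44-fold higher with B and C alone (adjusted p = 0.000729), and was called with the block (adjusted p = 0.0313). It passed the filter only through LSB3i day 15. MSTN (myostatin), SLN (sarcolipin) and ACTN3 (fast muscle alpha-actinin), named after their values were seen, were also called with B and C alone, by 2.10 ± 0.46, 2.04 ± 0.46 and 2.19 ± 0.44. In array A MSTN and SLN rose, whereas ACTN3 fell from 7.21 to 6.44. MSTN passed the filter only through LSB3i day 9. The defining muscle regulators MYOD1, MYOG and MYF5 and the muscle filament gene DES were above background on none of the 6 arrays, and 0 of the 7 muscle markers with a probe were called by limma. The summed intensity of those 7 ranged from 1754 to 6945 on day 7 and from 4819 to 14490 on day 9, of which ACTC1, an actin also made outside striated muscle, carried most. SUSD2, a cell surface protein, was 1 more gene called with B and C alone (3.17 ± 0.40, adjusted p = 3.71e-05) and with the block (adjusted p = 0.00107), and stood at 7.17 in array A on day 9 against 10.39 and 11.15 in B and C.

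Few neural crest genes were called. None of 22 tested crest and glial genes was called with all arrays by limma (6 higher and 1 lower at an unadjusted p under 0.05), 1 was called with B and C alone and 2 with the block. SOX10, the defining factor of migrating crest and its glia, measured 7.06, 9.73 and 9.88 on day 7 and 9.41, 10.41 and 10.61 on day 9. The difference was 1.25 ± 0.49 (adjusted p = 0.426) with all arrays and 0.70 ± 0.39 (adjusted p = 0.863) with B and C alone. EDNRB, the endothelin receptor of crest, measured 7.34, 9.24 and 8.78 on day 7 and 8.88, 10.79 and 10.68 on day 9, and was called with B and C alone (1.73 ± 0.35, adjusted p = 0.00557) and with the block (adjusted p = 0.00104) but not with all arrays (adjusted p = 0.077). TFAP2B, an AP-2 factor of crest and sensory lineages, was called with the block (1.90, adjusted p = 0.0242) and not otherwise (adjusted p = 0.209 with all arrays). All 6 neural crest markers with a probe were above background on at least 1 array of each day, with a summed intensity of 1439 to 6025 on day 7 and of 5351 to 11840 on day 9, lowest in array A on both days. The summed intensity of the 8 sensory and pan-neuronal markers ranged from 3131 to 11830 on day 7 and from 13380 to 41770 on day 9, also lowest in array A, and 1 of them, ELAVL4, was above background on none of the 6 arrays.

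Genes called lower were few with all arrays. WNT4, a secreted Wnt ligand of the dorsal neural tube, measured 9.01, 7.96 and 7.97 on day 7 and 7.15, 5.74 and 5.61 on day 9. The groups did not overlap, array A was the highest on both days, and B and C of day 9 were not above background. The difference was -2.14 ± 0.35 (adjusted p = 0.00261), and B and C alone gave a fall of at least 3.01-fold (adjusted p = 0.00014). PAMR1, a secreted protease-like protein, measured 12.00, 10.46 and 10.15 on day 7 and 10.05, 7.98 and 7.89 on day 9. Its difference was -2.23 ± 0.48 (adjusted p = 0.0274) and -2.37 ± 0.40 with B and C alone. GRM3, a metabotropic glutamate receptor, had a difference of -1.92 ± 0.37 (adjusted p = 0.016), and its groups did not overlap. It was above background on only 1 day 9 array. ALPL, the tissue-nonspecific alkaline phosphatase known from pluripotent cells, measured 11.79, 10.27 and 10.59 on day 7 and 10.30, 9.07 and 8.25 on day 9. Array A of day 9 lay within the day 7 values, and the difference was -1.68 ± 0.37 (adjusted p = 0.032) and -1.77 ± 0.30 with B and C alone (adjusted p = 0.000984). The last of the 5 was the noncoding SNAR-A1 (-1.63, adjusted p = 0.0498), a gene with near-identical copies whose signal cannot be assigned to 1 copy.

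With B and C alone the lower group grew to 27 and took in homeodomain and progenitor factors. DMBX1, a homeodomain factor of the midbrain, measured 9.14, 8.73 and 8.76 on day 7 and 8.53, 5.90 and 5.54 on day 9. Array A fell by 0.61, while B and C of day 9 were not above background, a fall of at least 5.18-fold with B and C alone (adjusted p = 0.00381). All arrays gave -2.22 ± 0.59 (adjusted p = 0.0945) and the block an adjusted p of 0.0289. IRX3, an Iroquois homeodomain factor of neural patterning, measured 10.90, 10.47 and 11.09 on day 7 and 10.80, 8.70 and 8.75 on day 9, with -2.06 ± 0.31 in B and C alone (adjusted p = 0.000313) and -1.41 ± 0.37 with all arrays (adjusted p = 0.0848, and 0.0176 with the block). IRX5, its neighbour on chromosome 16, had -1.72 ± 0.44 with B and C alone (adjusted p = 0.0488) and -1.46 ± 0.40 with all arrays (adjusted p = 0.114). SOX21, a SOXB progenitor factor, measured 11.29, 7.52 and 7.95 on day 7 and 8.30, 5.84 and 5.5 on day 9. Each letter fell, from levels that differed so far between the letters that the groups overlapped, and the call stood with B and C alone (at least 2.57-fold lower, adjusted p = 0.000166) and the block (adjusted p = 4.55e-06) but not with all arrays (adjusted p = 0.0866).

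Of the progenitor factors, 0 of 29 were called by limma with all arrays (1 higher and 7 lower at an unadjusted p under 0.05), 1 lower with B and C alone (SOX21) and 2 lower with the block. Over all genes, 7.74% had such an unadjusted p in either direction. The median of the progenitor factors was -0.37 with all arrays and -0.50 with B and C alone, and 22 of 29 were below 0 in B and C, against 53.9% of all genes. SOX2, the SOXB factor of neural progenitors and stem cells, measured 12.77, 11.41 and 11.76 on day 7 and 11.87, 10.73 and 10.46 on day 9, a difference of -0.96 ± 0.27 (adjusted p = 0.141). With B and C alone it was -0.99 ± 0.20 with an adjusted p of 0.00474, which fell just short of the minimum change. PAX6, a paired-box factor of neural progenitors, moved in opposite ways: 9.09 to 10.52 in array A, 10.83 to 9.40 in B and 10.95 to 9.28 in C, with no call in either set (adjusted p = 0.58 with B and C alone). The spread in both fits also took in LSB3i day 5, where PAX6 read 6.56, 9.94 and 9.58 in arrays A, B and C. Among dorsal midline and plate border genes, 1 of 14 was called lower with all arrays and with the block (WNT4) and 2 with B and C alone, where ZIC2, a zinc finger factor of the dorsal neural tube, was the other (-1.31 ± 0.25, adjusted p = 0.00348). In B and C alone 12 of the 14 were below 0, with a median of -0.68, whereas the median with all arrays was 0.10. WNT1, the dorsal midline Wnt, followed the pattern of PAX6, with 9.39 to 10.17 in array A, 10.31 to 8.90 in B and 10.60 to 8.67 in C, and was not called (adjusted p = 0.543 with B and C alone). On LSB3i day 5 it read 5.34 in array A against 9.45 and 9.61 in B and C, which also entered the spread.

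Of the genes called lower with B and C alone that did not fall in the A pair, 4 are described here and shown in the plot of the patterning genes. BMP2, a bone morphogenetic protein, measured 10.36 and 10.35 in B and C on day 7 and 8.0 and 8.06 on day 9, while array A went from 9.42 to 10.37. AMHR2, the receptor of anti-Mullerian hormone, fell at least 5.04-fold in B and C (adjusted p = 0.000304), from 8.49 and 8.93 to 6.13 and 6.09, while array A went from 6.19 to 8.12. GRP, the peptide gastrin-releasing peptide of sensory and other neurons, went from 7.46 and 7.50 to 5.37 and 5.60 in B and C and from 4.95 to 7.15 in array A. SERTM2, a small membrane protein gene on the X chromosome, went from 9.24 and 9.06 to 6.69 and 7.01 in B and C and from 6.36 to 8.69 in array A. With all arrays these 4 had differences of -1.23, -1.09, -0.60 and -0.76 and adjusted p-values from 0.448 to 0.969. In each of them array A of day 9 was closer to B and C of day 7 than to B and C of day 9. Across the 27 genes called lower, the A pair rose by at least 1 in 5 and fell by at least 1 in 8.

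**Figure D3:**
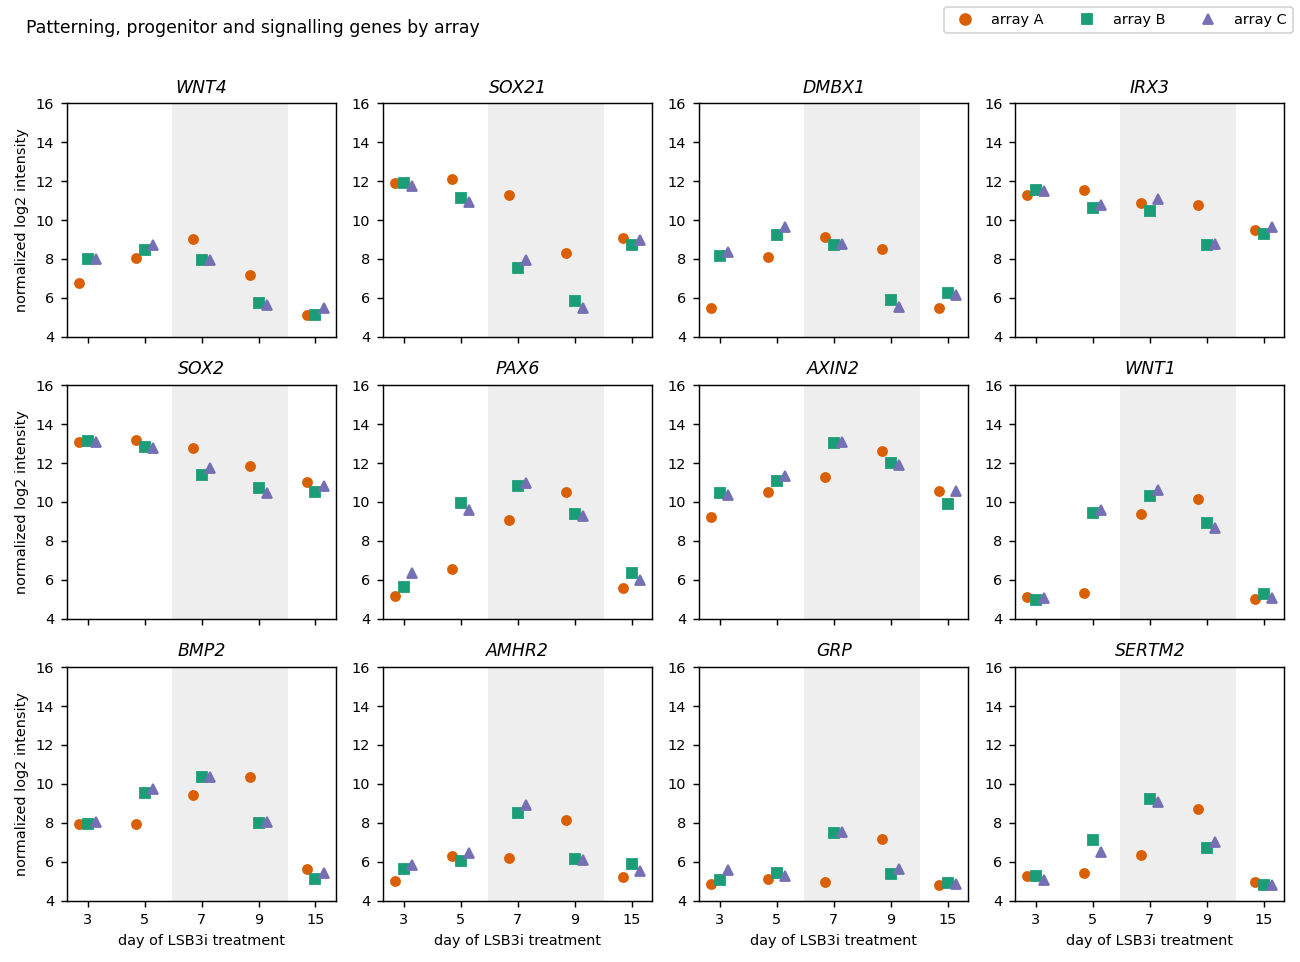
Normalized log2 intensity of 12 genes on the 15 LSB3i arrays by day, 1 point per array, with the letter shown by colour and shape and days 7 and 9 shaded. WNT4 and SOX21 fall in each letter between the shaded days, whereas BMP2, AMHR2, GRP and SERTM2 fall in B and C and rise in array A. On day 9 array A of these last 4 genes (10.37, 8.12, 7.15 and 8.69) stands near the day 7 values of B and C.

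Targets of the signalling pathways that the inhibitors act on were called rarely. Of the Wnt/beta-catenin targets, 0 of 15 were called by limma with all arrays (1 higher and 2 lower at an unadjusted p under 0.05), and NKD2, a Wnt antagonist, was called higher with B and C alone (1.22 ± 0.30, adjusted p = 0.0394). In array A NKD2 went down, from 7.09 to 6.52. AXIN2, the feedback target used as a readout of beta-catenin, measured 11.27, 13.01 and 13.07 on day 7 and 12.60, 12.00 and 11.89 on day 9. It rose in array A and fell in B and C, with -0.29 ± 0.37 with all arrays (adjusted p = 1) and -1.10 ± 0.35 with B and C alone (adjusted p = 0.186). Of the FGF/ERK targets, 0 of 20 were called by limma with all arrays (2 higher and 2 lower at an unadjusted p under 0.05), while B and C alone called EGR1, an immediate-early factor, higher (1.66 ± 0.41, adjusted p = 0.0339) and the receptor FGFR3 lower (-1.32 ± 0.29, adjusted p = 0.0131). Array A showed neither, with EGR1 at 9.48 and then 8.86 and FGFR3 at 10.46 and then 10.44. None of 14 BMP and TGF-beta/SMAD targets was called by limma in either set, nor had one an unadjusted p under 0.05. The pluripotency list held 1 call of 13, the deubiquitinase gene USP44, lower with B and C alone (-1.19 ± 0.27, adjusted p = 0.0177) and with the block. Of 7 pluripotent cell markers, POU5F1, NANOG and CRIPTO were above background on none of the 6 arrays, while ZFP42, DPPA4, LIN28A and L1TD1 were above it on all 6. The summed intensity of the 7 ranged from 17970 to 20610 on day 7 and from 15750 to 18760 on day 9, and none was called.

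Cell cycle and housekeeping genes held no calls. None of 28 mitosis genes was called by limma in either set, with 0 higher and 2 lower at an unadjusted p under 0.05 with all arrays. Over all genes, 7.74% had such an unadjusted p in either direction. Of the mitosis genes 24 were below 0 with B and C alone, against 53.9% of all genes, with a median of -0.17 and a range from -0.56 to 0.16. The median moved with the scaling of the arrays, from -0.28 to -0.40 with all arrays, beside a shift over all genes from -0.028 to -0.0999. MKI67, the proliferation antigen, had -0.17 ± 0.29 (adjusted p = 1), and CCND1, cyclin D1, had -0.28 ± 0.22 (adjusted p = 0.941). No call was made by limma among 27 replication genes (0 at an unadjusted p under 0.05), 20 G1 cyclins and CDK inhibitors (3 higher and 1 lower), 7 HOX genes and cofactors (1 lower), 18 cholesterol synthesis genes (1 higher and 1 lower), 18 amino acid and stress genes (2 higher) or 24 hypoxia and glycolysis genes (1 higher), with all arrays or with B and C alone. CDKN1A, the inhibitor p21, stood at 0.74 ± 0.29 (adjusted p = 0.448) and 1.15 ± 0.32 (adjusted p = 0.0867). GAPDH had -0.07 ± 0.16 and ACTB 0.23 ± 0.17.

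**Figure D4:**
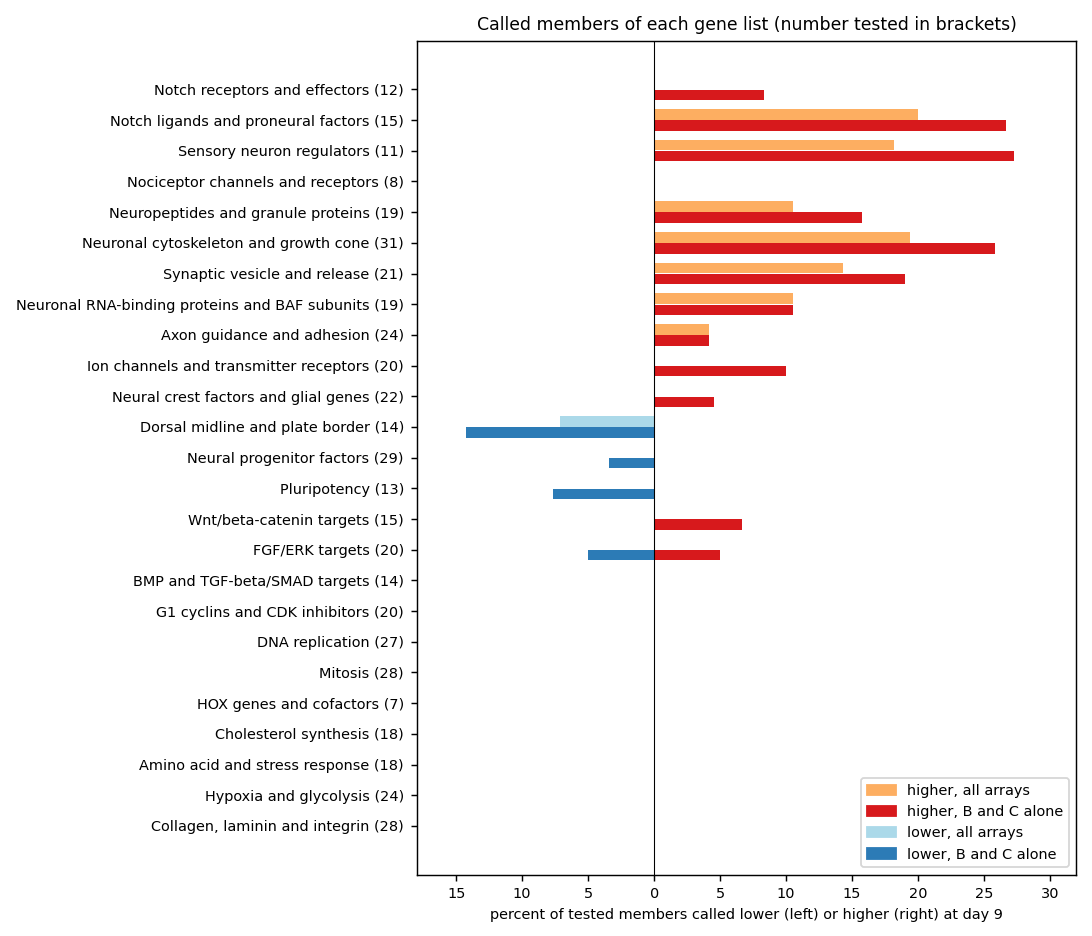
Percent of the tested members of each of 25 gene lists called higher (right) or lower (left) on day 9, with all arrays and with B and C alone, and the number tested in brackets. With B and C alone the bars are longest for sensory neuron regulators (3 of 11), Notch ligands and proneural factors (4 of 15) and the neuronal cytoskeleton (8 of 31), against 1.09% of all genes. The lists were chosen with earlier results of these data known. POU4F2 passed the filter only through LSB3i day 15 and EBF2 only through LSB3i days 9 and 15. The share over all genes is therefore not a matched background.

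Whether these changes differed from those of cells under LDN-193189 and SB431542 alone was tested as a difference of changes over the same days. It was called for 699 genes (6.96%), 269 of them higher and 430 lower in LSB3i. With arrays scaled to a common median in place of quantile normalization, the calls were 98 higher and 5761 lower, as the median over all genes went from -0.0779 to -1.23. LSB day 7 also had the largest spread of the 11 groups, with a residual SD of 0.801 against 0.366 and 0.323 for LSB3i on days 7 and 9. The difference for SST was 4.59 (adjusted p = 0.00392), for DCX 3.55 (adjusted p = 0.00232), for ISL1 3.23 (adjusted p = 0.0449) and for WNT4 -2.15 (adjusted p = 0.00767) under quantile normalization. SST, ISL1 and WNT4 were above background on no LSB array of day 7 or day 9. For these genes the LSB change that was subtracted is therefore not a measured one. Because the number and split of calls moved with the scaling, no change is called particular to the 5 inhibitors.

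The 6 arrays had mean signals from 687.7 to 871.6 and between 12368 and 13743 probes above background, and 571 of the 10038 genes were above background on none of them.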

How the data were processed

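Per the labels' protocols, total RNA was extracted with Trizol LS and labelled with biotin. The submitters' processing notes name GenomeStudio without a version. Linear bead intensities and detection p-values were deposited without normalization, for 48803 probes on 33 arrays. The intensity values of the authors' processed table carry probe IDs that disagree with it (4.91% of rank-matched pairs share an ID) and served as an alternative.

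Intensities were background-corrected with normexp from detection p-values (limma 3.58.1, R 4.3.3, offset 16), quantile-normalized and taken to log2. Probes with a detection p-value under 0.01 on all 3 arrays of a group were kept (14651, of which 12708 had 1 gene symbol in the platform annotation), and each gene was represented by its brightest probe on average. Any of the 11 groups sufficed, so a gene could enter through a late group where it was high. Of all probes, 28098 had 1 symbol, 13 several and 20692 none. One model with 11 group means was fitted with lmFit and eBayes, and p-values were adjusted over 10038 genes by Benjamini-Hochberg. The fit was run on simulated data with independent noise, the same spread in every group and no array A set apart. That run cannot show how calls behave under the unequal spread and the distinct A arrays seen here. Where a probe was above background on no array of 1 day, the change is a bound against the lowest detected intensity. The letters were taken to pair the arrays, since same-letter deviations from the day means correlated at 0.315, 0.23 and 0.152 (rule: all over 0.1), although the labels do not say what a letter marks. The deviations of a day share 1 mean, so array A standing apart on both days can raise all 3 correlations. The rule cannot tell this from pairing of B or C, as unlike letters were not correlated. The median standard error was 0.277 with all arrays and 0.331 with B and C alone, a precision set by the few arrays.

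Named genes were drawn, not exhaustively, from the called genes with the 20 largest and 20 smallest changes whose arrays do not overlap (with all arrays or B and C), as many as 4 called genes from either end of each list (or its 2 most changed), the ends of the difference of changes, the markers and a fixed panel, with exceptions stated. The comparison, lists, markers and rule were chosen with earlier results of these data known. Promoter windows are from RefSeq. Changed in turn were the arrays used, block, normalization, background, filter, probe choice, source and weights.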

Additional observations from a re-analysis of the deposited data

Results flagged for a closer look

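The change from day 7 to day 9 differed between LSB3i and LSB for 699 genes in a test of the difference itself. Without the A arrays of LSB3i day 7 and day 9 it was 624. Leaving out single arrays moved the count between 433 and 1239, and median scaling moved it to 5859. No group of 4 or more arrays was compared, so no array was tested for standing apart within its group by its range.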

How the results depend on the processing

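Against 52 calls with all arrays (47 higher, 5 lower), arrays B and C alone gave 136 (109 and 27), the replicate block 132 (108 and 24), array weights 322 (230 and 92), the 6 arrays alone 0 (0 and 0; limma, 969 genes at an unadjusted p under 0.05), the 6 arrays with the replicate block 22 (18 and 4), the 15 LSB3i arrays alone 0 (0 and 0; 781 unadjusted) and probes on at least 17 arrays 6 (5 and 1). Median scaling gave 70, with 13 lower. Another 2 alternatives were chosen after seeing the data: B and C with only those 4 arrays in the fit gave 324 (225 and 99), and B and C with median scaling gave 144 (125 and 19). Leaving out 1 array at a time gave 4 to 234 calls, 4 to 181 higher and 0 to 53 lower, lowest without array B of day 9 and highest without array A of day 9. The other settings, an offset of 50, probes detected on either day, the mean of probes, the authors' values and no minimum fold, gave 46 to 61 calls. For the difference of changes (699), median scaling gave 5859, single left-out arrays gave 433 to 1239, and the replicate block gave 847. The cause of these shifts was not tested, and some of these fits also held fewer arrays or genes. No named gene that was called turned its direction under any alternative run. Gene list counts were recomputed with B and C alone, the block and median scaling only. Dim probes limit what can be measured: for genes at background on 1 day only a bound on the change is given.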

Other observations

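On day 15, outside the comparison, the LSB3i arrays A, B and C read 15.05, 15.36 and 14.54 for SST and 15.30, 15.48 and 15.40 for STMN2, above every day 9 array of either gene. For TNNC2, the fast muscle troponin C, they read 4.83, 4.95 and 5.23, and for SUSD2 6.85, 6.70 and 5.48, below arrays B and C of day 9 in both genes. POU4F1, not called between days 7 and 9, read 12.27, 11.95 and 12.71. These levels are a description with no test.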
